A study of Mus musculus with 8 samples.

Results

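Store-operated calcium entry, calmodulin and the NFAT factors were followed through 9 genes of mouse invariant natural killer T (iNKT) cells: Tmem66, Stim1, Stim2, Orai1, Orai2, Calm2, Calm3, Nfatc1 and Nfatc2. They are 9 of the 22549 genes in the deposited count table, found there by symbol. The 9 genes were chosen by their roles and on their skin and spleen levels in these same counts (counts scaled to library size, CPM, in skin against spleen). Their differences between the tissues are therefore given as a description. Where the text says which of them pass the threshold of the fit over all genes, this too describes the values that chose them and supports nothing. The study sequenced 4 libraries of skin iNKT cells and 4 of spleen iNKT cells. All mice had the genotype CCR10+/EGFP, so that skin and spleen cells alike carried 1 EGFP allele at the chemokine receptor gene Ccr10. Nothing in the labels ties a library to an animal or gives an age or a treatment, so errors measure the spread between libraries, which may be technical.

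As background, engagement of the T cell receptor opens calcium channels of the endoplasmic reticulum, and the fall in stored calcium is sensed by the STIM proteins in its membrane. STIM proteins then gate ORAI channels in the plasma membrane, and the calcium that enters binds calmodulin. Calcium-loaded calmodulin activates the phosphatase calcineurin, which strips phosphate from NFAT transcription factors so that they enter the nucleus. Tmem66, now named Saraf, encodes a protein of the endoplasmic reticulum that dampens this entry by promoting its slow inactivation. In iNKT cells, as in other T cells, this route links the antigen receptor to cytokine genes.

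Calm2 and Calm3 encode calmodulin, and whether their counts can be told apart rests on their sequences. The first 150 bases of the coding sequence are shown for this reason, 5′ to 3′, with capitals at the positions where these genes differ.
Calm2: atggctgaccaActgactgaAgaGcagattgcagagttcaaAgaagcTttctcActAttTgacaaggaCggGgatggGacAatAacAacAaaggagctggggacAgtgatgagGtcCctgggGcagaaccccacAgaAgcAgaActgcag
Calm3: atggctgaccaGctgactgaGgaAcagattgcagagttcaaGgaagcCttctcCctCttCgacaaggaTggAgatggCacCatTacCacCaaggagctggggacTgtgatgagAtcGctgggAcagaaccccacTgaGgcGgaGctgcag
The coding sequences were read from GENCODE M21 transcripts as the longest open reading frame, and each has 450 bases. Calm2 and Calm3 were identical at 372 positions (82.7%), and 74 of their 78 differences fell on the third base of a codon. The longest identical run was 17 bases, so no window of 75 bases, the read length, was shared between these coding sequences. Over whole transcripts, 44 of 1131 such windows of Calm2 (3.89%) also occurred in the predicted genes Gm7308 or Gm15720. For Calm3 it was 28 of 2216 windows (1.26%), shared with Gm5881. None of the windows of the other 7 members (0%) occurred in another gene. The deposited counts are estimates that share out reads matching several genes, and the values of Tmem66, Calm2 and Nfatc1 were not whole numbers in any of the 8 libraries (tolerance 0.001). Why the values of Tmem66 and Nfatc1, with 0% of windows shared, were not whole was not tested.

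Library totals ran from 7191131 to 9791973 expected counts, and values below are CPM (expected counts scaled to a common library size by TMM), with mean ± SD over 4 libraries per tissue. A count of 3, taken as the floor of detection, equals 0.292 to 0.454 CPM. Skin libraries had a count for 5302 to 6012 genes and spleen libraries for 6415 to 10094. The 9 T cell and iNKT markers summed to 3952 to 4128 CPM in skin and 3880 to 4940 CPM in spleen, and edgeR called 3 of them. Cd44 was 3.96-fold higher in skin, Cd3d was 2.36-fold lower, and Klrb1c, which encodes NK1.1, had no count in skin. Keratinocyte markers in skin summed to 273 to 1032 CPM, with 9 of 13 genes detected, and to 0 to 29.5 CPM in spleen, with 3 of 13. B cell markers were at 0 in every skin library but summed to 31.5 to 166 CPM in the spleen, and mast cell markers were at 0 throughout. Macrophage and dendritic cell markers summed to 68.9 to 347 CPM in skin and to 62.3 to 382 CPM in spleen. Erythroid and platelet markers summed to at most 0.424 CPM in skin and to 111 to 228 CPM in spleen, and fibroblast markers to 0 to 168 CPM in skin and 0 in spleen. Immediate early genes, which respond to stimulation and to handling, summed to 9023 to 18961 CPM in skin and to 569 to 821 CPM in spleen replicates 1 to 3, while spleen replicate 4 stood apart at 7878 CPM.

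Tmem66, the brake on calcium entry, had the widest gap between the tissues among the 9 genes. Its level was 3094, 3375, 3150 and 2154 CPM in skin replicates 1 to 4. In spleen replicates 1 to 4 it was 299, 293, 320 and 341 CPM. Every skin library was thus far above every spleen library, and the lowest skin value was 6.33 times the highest spleen value. The means were 2943 ± 540 and 313 ± 21.7 CPM, a 9.40-fold higher level in skin with a log2 fold change of 3.23 ± 0.18 (SE). The spread over libraries was 18.3% of the mean in skin and 6.92% in spleen. In bulk RNA, a change in the number of cells that express a gene and a change in RNA per cell cannot be told apart. Leaving out each library in turn gave log2 fold changes of 3.12 to 3.32.

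Keratinocyte markers and immediate early genes, which had the largest summed levels among the lists higher in skin, were set beside Tmem66. Skin replicate 4, the lowest skin library for Tmem66, also had the lowest keratinocyte sum (273 CPM). Skin replicate 3 had the highest keratinocyte sum, 1032 CPM, and 3150 CPM of Tmem66. Skin replicate 2, the highest skin library for Tmem66 (3375 CPM), had a keratinocyte sum of 334 CPM. In skin replicate 1 the keratinocyte sum was 920 CPM, with 3094 CPM of Tmem66. Immediate early sums in skin replicates 1 to 4 were 9023, 10169, 18961 and 14575 CPM, so the lowest skin library for Tmem66, replicate 4, did not have the lowest sum. Spleen replicate 4, with its high immediate early sum, was the highest spleen library for Tmem66 at 341 CPM, with 293 to 320 CPM in the others. Without that library the log2 fold change was 3.27. The part of keratinocyte RNA and of the immediate early genes in the Tmem66 difference was not tested.

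**Figure D1:**
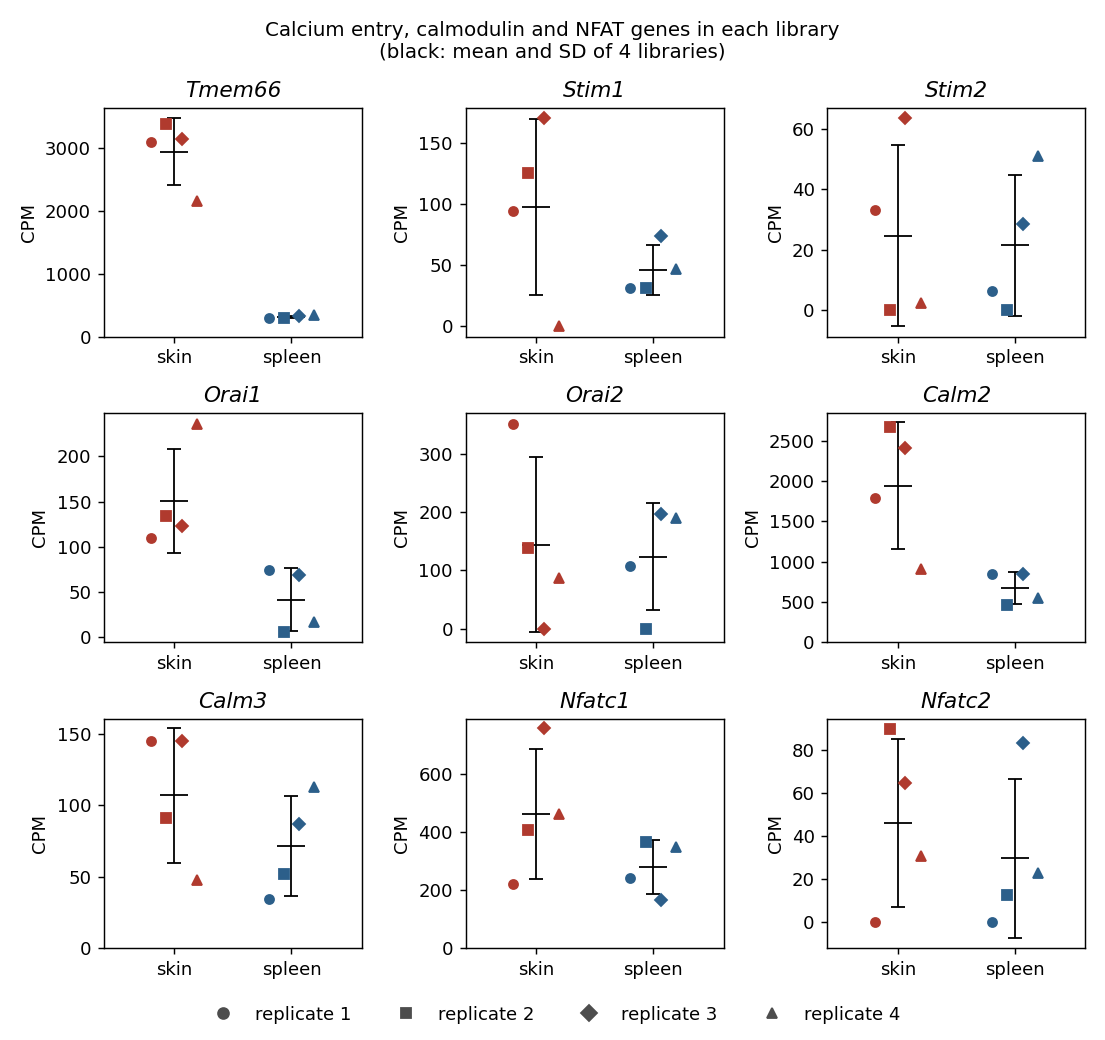
Level of each of the 9 genes in CPM (linear axes, one panel per gene) in the 4 skin and 4 spleen libraries, with marker shapes for the replicates. Black lines are the mean and SD of 4 libraries. Tmem66, Orai1 and Calm2 show no overlap between the tissues, and Stim1, Stim2, Orai2 and Nfatc2 have libraries at 0.

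The calcium sensors of the store had wide spreads that overlapped. Stim1, the principal sensor, was at 94.3, 126 and 171 CPM in skin replicates 1 to 3 and at 0 in skin replicate 4. Its spleen values were 31.3, 31.5, 74.4 and 47.0 CPM. So 3 skin libraries lay above every spleen library while the remaining one had no count, and the means of 97.7 ± 72.3 and 46.0 ± 20.3 CPM gave a log2 fold change of 1.09 ± 1.71 (SE). Stim2, the sensor that responds to smaller losses of stored calcium, was at 33.0, 0, 63.6 and 2.26 CPM in skin. In spleen it was at 6.33, 0, 28.5 and 51.1 CPM. The ranges of Stim2 coincided almost wholly, with a log2 fold change of 0.20 ± 2.34 (SE). Summed over both genes, STIM transcripts were at 2.26 CPM in skin replicate 4 and at 126 to 235 CPM in skin replicates 1 to 3, against 31.5 to 103 CPM in spleen.

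Zeros of this kind were common for genes at such levels. Among tested genes whose skin mean was 0.8 to 1.25 times that of Stim1, 46.2% of 818 had no count in at least 1 skin library. For genes at the skin level of Stim2 it was 88.1% of 716, and at that of Nfatc2 78.5% of 944. For Orai2, with a library at 0 in each tissue, the shares were lower, 27.5% of 702 genes in skin and 12.5% of 993 in spleen. A single library at 0 is therefore what many genes at the levels of Stim1, Stim2 and Nfatc2 show, and fewer at that of Orai2. It was not treated as absence.

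The channel subunits behaved unlike each other. Orai1, the pore subunit on which calcium entry in T cells mainly rests, was at 110, 135, 123 and 236 CPM in skin. In spleen it was at 73.9, 6.15, 69.3 and 17.1 CPM. All skin libraries lay above all spleen libraries, although the lowest skin value was only 1.49 times the highest spleen value. The means were 151 ± 57.5 and 41.6 ± 35.0 CPM, 3.63-fold apart, and the log2 fold change of 1.86 ± 1.07 (SE) did not pass the threshold over all genes. Orai2, a subunit that can join Orai1 and weaken the current, was at 352, 139, 0 and 86.3 CPM in skin. Its spleen values were 107, 0, 196 and 190 CPM. Both tissues had a library at 0 and the ranges overlapped, with a log2 fold change of 0.23 ± 2.02 (SE).

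Orai3, the remaining family member and not among the 9, was detected in 1 of 4 skin libraries, replicate 2, at 118 CPM. In spleen it was at 0, 270.0, 98.3 and 40.0 CPM, and the edgeR test did not call it. The summed level of Orai1, Orai2 and Orai3 was, in CPM, 462, 392, 123 and 322 CPM in skin and 181, 276, 364 and 247 CPM in spleen. These sums overlapped, unlike the values of Orai1 alone.

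The bases before the start of Orai1 are shown because it is the only channel or sensor gene among the 9 whose tissues did not overlap, with those of Nfatc2 beside it because NFAT factors bind the core GGAAA. Both are the 250 bases upstream of a RefSeq start on the gene's own strand (GRCm38.p6, whereas the counts were made on mm9). Capitals mark GGAAA and the cyclic AMP half-site TGACG, on either strand.
Orai1 (chr5:123014824-123015073, plus strand): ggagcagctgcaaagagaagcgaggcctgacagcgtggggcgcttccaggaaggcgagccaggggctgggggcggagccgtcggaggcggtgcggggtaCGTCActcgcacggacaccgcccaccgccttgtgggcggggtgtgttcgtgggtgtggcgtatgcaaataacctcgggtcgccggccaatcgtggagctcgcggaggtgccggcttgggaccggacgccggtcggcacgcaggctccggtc
Nfatc2 (chr2:168601658-168601907, minus strand): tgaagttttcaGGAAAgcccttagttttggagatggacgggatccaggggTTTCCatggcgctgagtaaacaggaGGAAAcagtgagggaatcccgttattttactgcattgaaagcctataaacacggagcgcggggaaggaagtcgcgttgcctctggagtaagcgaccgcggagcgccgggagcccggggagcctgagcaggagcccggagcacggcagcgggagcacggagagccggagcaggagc
The Orai1 stretch held 0 matches to GGAAA and 1 to TGACG, and the Nfatc2 stretch held 3 matches to GGAAA. A second RefSeq start of Nfatc2 (chr2:168590366-168590615, minus strand) held 1. The search for the 9 genes left out a chromosome that the count over all promoters kept. Stretches were taken for 6 of the 9 genes, not for Tmem66, Calm2 and Nfatc1. A missing stretch therefore does not mean that no start is listed. GGAAA occurred in 3 of these 6 (Nfatc2, Orai2 and Calm3) against 55.6% of all 32851 promoters of this length. TGACG, which was added after the sequences had been seen, occurred in 4 of 6 (Stim1, Orai1, Orai2 and Calm3) against 17.8%. Because these sequences led to that choice, nothing is read from the contrast. Counts among the 6 are per gene, over any of its stretches, while the percentages are per promoter. TGANTCA, the AP-1 site, occurred in 0 of 6 against 6.75%. A match is a description of letters and not a site.

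Calm2, which makes the same protein as Calm3, was at 1786, 2675, 2405 and 911 CPM in skin. In spleen it was at 845, 461, 848 and 553 CPM. All skin libraries were above all spleen libraries, but skin replicate 4 only by 1.08 times the highest spleen value. The means were 1944 ± 783 and 677 ± 199 CPM, 2.87-fold apart, with a log2 fold change of 1.52 ± 0.35 (SE). Calm3 was at 145, 91.0, 145 and 47.3 CPM in skin and at 34.6, 51.6, 87.1 and 113 CPM in spleen. Its ranges overlapped, and the means of 107 ± 47.3 and 71.5 ± 35.2 CPM gave a log2 fold change of 0.58 ± 0.96 (SE).

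The calmodulin-like genes of the epidermis had few counts: Calm5 and Calml3 were at 0 in all libraries, and Calm4 had 28.2 CPM in skin replicate 1 alone. They belong to the 13 keratinocyte markers, of which 9 were detected in skin. Perp, another of these markers, was at 153 ± 55.5 CPM in skin and 0 in spleen (edgeR adjusted p = 0.0328, called higher). Krt15 (146 ± 126 CPM) and Krt14 (116 ± 136 CPM) also had counts in skin and 0 in spleen, but were below the filter.

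The NFAT factors at the end of the route overlapped between the tissues. Nfatc1, whose short isoform is induced through NFAT itself in activated T cells, was at 221, 408, 760 and 462 CPM in skin. Its spleen values were 240, 365, 166 and 348 CPM. Skin replicate 1 lay within the spleen range and the other skin libraries above it, with means of 463 ± 223 and 280 ± 93.9 CPM and a log2 fold change of 0.73 ± 0.42 (SE). Nfatc2, the factor already present in resting T cells, was at 0, 89.4, 64.4 and 30.6 CPM in the skin libraries. Its spleen values were 0, 12.6, 83.2 and 22.7 CPM. Each tissue had 1 library at 0 and the ranges nearly coincided, with a log2 fold change of 0.64 ± 2.29 (SE). Nfatc3, a family member outside the 9, was at 106 ± 75.0 against 150.2 ± 38.2 CPM (skin against spleen), with no edgeR call.

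All 9 genes passed the filter on low counts. Over all 6920 genes tested, 1.85% were called higher in skin, 3.58% were called lower, and in 6.11% every skin library was above every spleen library. Among the 9 genes, 2 were called higher (Tmem66 and Calm2), 0 were called lower, and 3 had all skin libraries above all spleen libraries (Tmem66, Orai1 and Calm2). Because the choice of genes used this contrast, nothing is read from these counts. The fitted log2 fold change was above 0 for 9 of 9, with a median of 0.73, beside 42.2% of all genes tested and a median of -0.29. The call of Calm2 was fragile. It was made in 1 of 8 fits that left out a library, the one without skin replicate 4, with log2 fold changes of 1.29 to 1.72. Among 9 other settings it was made in 6, and it was lost with library totals alone, DESeq2 and the replicate block. Limma-voom, which moved the median of all genes by -1.77 to -2.06, put 4 of the 9 below 0: Stim1 (-1.25), Stim2 (-2.06), Orai2 (-2.22) and Nfatc2 (-1.39). Relative to that median, Stim1 and Nfatc2 were above it, Stim2 was level with it and Orai2 was below it.

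**Figure D2:**
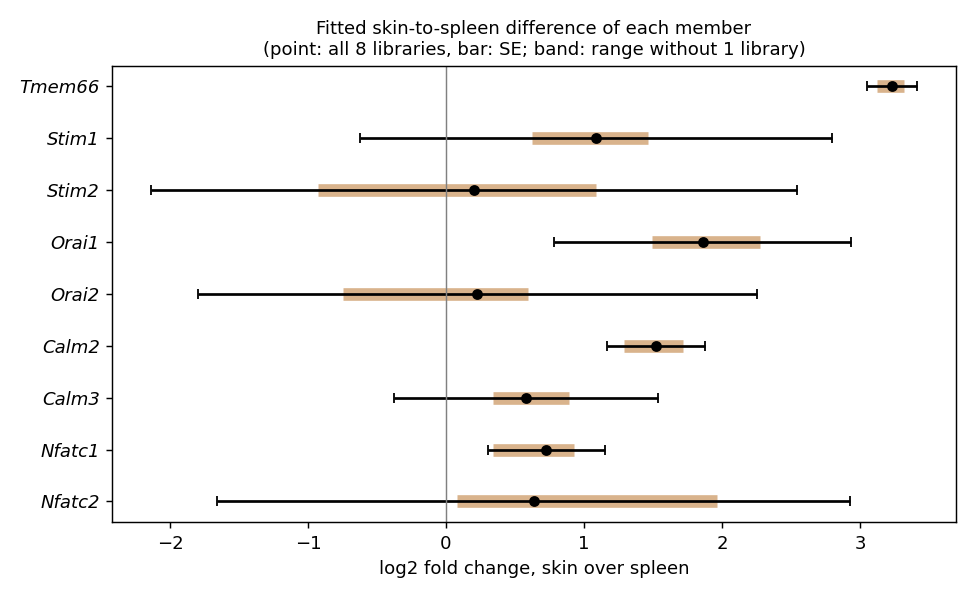
Fitted log2 fold change of skin over spleen for each of the 9 genes (points), with the SE as a bar and the range over fits without 1 library as a shaded band. Tmem66 (3.23 ± 0.18) and Calm2 (1.52 ± 0.35) have the smallest SE, while the bars of Stim1, Stim2, Orai2, Calm3 and Nfatc2 cross 0.

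No skin or spleen library was high or low throughout the 9 genes. Skin replicate 4 was the lowest skin library for Tmem66, Stim1, Calm2 and Calm3 but the highest for Orai1. Skin replicate 3 was the highest for Stim1, Stim2, Calm3 and Nfatc1. In spleen, replicate 2 was the lowest for 5 of 9, among them Orai1 and Orai2, and replicate 3 was the highest for 4 of 9.

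Levels of different genes were compared per kilobase of the longest protein-coding transcript in GENCODE M21. In skin, Calm2 (1614 ± 650 CPM per kb) and Tmem66 (1582 ± 290) stood first and overlapped with each other. They did not overlap with the next gene, Nfatc1 (96.5 ± 46.5). After it came Orai1 (80.5 ± 30.7), Calm3 (46.8 ± 20.6), Orai2 (36.2 ± 37.6), Stim1 (22.4 ± 16.6), Nfatc2 (6.75 ± 5.72) and Stim2 (5.01 ± 6.07 CPM per kb), and each of these overlapped with its neighbour. In spleen, Calm2 (562 ± 165 CPM per kb) was above Tmem66 (168 ± 11.6), and Tmem66 above Nfatc1 (58.3 ± 19.6), without overlap. The lower end of the spleen order was Stim1 (10.6 ± 4.65), Stim2 (4.36 ± 4.71) and Nfatc2 (4.34 ± 5.41 CPM per kb), which overlapped. Tmem66 thus had about the level of Calm2 in skin but lay below it in every spleen library.

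Other genes of the route were taken from 6 lists with 102 genes, of which 70 could be tested. By the edgeR test, 2 were higher in skin (Tmbim6 and Calr), 2 were lower (Camk1d and Homer3) and 66 were not called. Over all 6920 genes tested, 1.85% were called higher and 3.58% lower. The median log2 fold change of the 70 genes was -0.27, and 28 of 70 were above 0. For all genes tested the median was -0.29, and 42.2% were above 0. Camk1d and Homer3 were the 2 genes at 0 in a tissue. With both set to their ratio to the floor, the median of the 70 was also -0.27. In 4 of the 70 all skin libraries were above all spleen libraries, which 6.11% of all genes tested show. In 7 all were below, which 13.4% of all genes tested show.

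Calcium entry and stores gave 2 higher of 22 tested and 0 lower by edgeR. Lower genes numbered 0 at an unadjusted p under 0.05, 0 by DESeq2 and 1 (Itpr2) by limma-voom. For every tool, the counts by list cover tested genes only. DESeq2, fitted without the filter on low counts, called 8 of all 102 listed genes lower in skin, beside 1179 of all 11429 genes fitted. Of those 8, Camk1d and Homer3 were tested genes, and the rest were below that filter. Tmbim6, an endoplasmic reticulum protein that lets calcium leak from the store, was at 440, 610.1, 448 and 313 CPM in skin and at 58.2, 149, 83.5 and 97.1 CPM in spleen. All skin libraries were higher, 4.67-fold in the mean (453 ± 122 against 97.0 ± 38.4 CPM, edgeR adjusted p = 0.0301). Calr, encoding the store's calcium-binding chaperone calreticulin, was at 1109 ± 324 and 553 ± 62.9 CPM (edgeR adjusted p = 0.0480). Tmbim6 was called in 2 of 8 fits that left out a library, those without skin replicate 4 or spleen replicate 2, and Calr in 1 of 8, without skin replicate 4. The Calr call was also lost with DESeq2 (adjusted p = 0.521), with library totals alone (0.0674), with no filter (0.0850) and with the replicate block (0.292). The Tmbim6 call was also lost with the replicate block (edgeR adjusted p = 0.125). Itpr2, a calcium release channel, was at 8.20 ± 16.4 against 126 ± 28.1 CPM, and Tmco1, which relieves overfilled stores, at 53.7 ± 62.4 and 182 ± 35.0 CPM. Neither Itpr2 nor Tmco1 was called by edgeR, although all skin libraries were below all spleen libraries.

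Calmodulin-dependent enzymes gave 1 lower of 12 tested and 0 higher by edgeR, with 0 higher at an unadjusted p under 0.05 and 0 by DESeq2 or limma-voom. Camk1d, a calmodulin-dependent kinase, was called lower by the edgeR test (adjusted p = 0.0473). Every skin library was without a count, and the spleen mean was 23.0 ± 16.2 CPM. That mean was 59.5 times the skin floor (3 counts in each library). The floor covers counting error only, so this ratio sets no lower limit on the fold. Camk1d was called in 0 of 8 fits that left out a library and in 7 of 9 other settings. Its call was lost with no filter and with the replicate block. Calcineurin subunits were measured at low levels: Ppp3ca at 114 ± 82.9 and 69.9 ± 33.7 CPM and Ppp3r1 at 65.3 ± 36.6 and 58.3 ± 28.1 CPM in skin and spleen. Camk4, the kinase that acts on nuclear targets, was at 135 ± 72.3 and 164 ± 39.5 CPM. The Chp1 gene, listed under its older symbol 1500003O03Rik and encoding a calcineurin-like calcium binder, was at 440 ± 287 and 90.7 ± 109 CPM, with all skin libraries above all spleen libraries but no edgeR call.

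Of the 4 tested calcineurin inhibitors and immunophilins, 0 were called by edgeR, 0 had an unadjusted p under 0.05, and 0 were called by DESeq2 or limma-voom. Fkbp1a, which binds the drug tacrolimus, was at 363 ± 147 and 336 ± 110 CPM, and Ppia, which binds cyclosporin, at 3123 ± 671 and 3778 ± 238 CPM. Rcan1, a calcineurin inhibitor that NFAT itself induces, was below the filter, with 0 in all skin libraries and 74.5, 0, 34.3 and 11.9 CPM in spleen. Among 11 tested NFAT family and export genes, Homer3, which competes with calcineurin for NFAT, was the one called. The edgeR test called it lower (adjusted p = 0.0473). Its skin libraries were all at 0, and its spleen mean of 8.56 ± 7.81 CPM was 22.1 times the same floor. This ratio, too, sets no lower limit on the fold. Homer3 was called in 0 of 8 fits that left out a library and in 6 of 9 other settings. Its call was lost with no filter, with at least 5 CPM in 4 libraries and with the replicate block.

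Upstream of calcium release, 0 of 10 tested genes were called by edgeR, and 1 had an unadjusted p under 0.05. Limma-voom called 1 lower, Txk, and DESeq2 called 1 higher, the adaptor gene Grap2, which is named only because its value was seen. Lck, the first kinase of the receptor, was at 890 ± 448 and 2036 ± 684 CPM (edgeR adjusted p = 0.149), and the adaptor gene Lcp2 at 482 ± 340 and 581 ± 121 CPM. Lat (397 ± 118 against 574 ± 71.9 CPM) and the kinase gene Txk (21.7 ± 43.2 against 354 ± 50.9 CPM) had all skin libraries below all spleen libraries. Of the genes known as NFAT targets, 0 of 11 tested were called by edgeR, by DESeq2 or by limma-voom, 0 had an unadjusted p under 0.05, and their median log2 fold change was 0.51. Pdcd1, encoding the inhibitory receptor PD-1, was at 271 ± 90.0 and 54.1 ± 39.0 CPM without overlap. The cytokine genes Ifng (123 ± 68.9 and 148 ± 101 CPM) and Il4 (7.26 ± 9.58 and 43.4 ± 27.8 CPM) overlapped. Il2 was at 0 in all 8 libraries. The floor of 0.292 to 0.454 CPM covers counting error only and sets no upper limit on its level. Cd40lg was at 239 ± 80.1 and 191 ± 59.3 CPM, and Fasl, which encodes the death ligand, at 214 ± 67.6 and 150.0 ± 69.9 CPM.

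**Figure D3:**
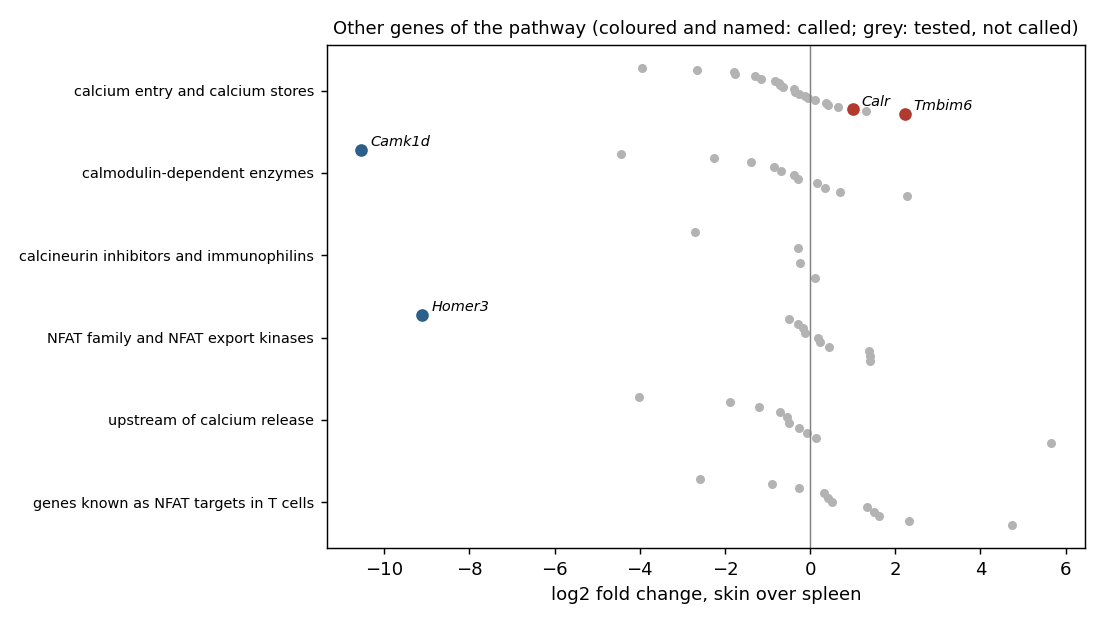
Fitted log2 fold change of skin over spleen for the 70 tested genes of the 6 lists, one point per gene, by list. Coloured, named points are called by edgeR (2 higher in red, 2 lower in blue) and grey points are not. The places of Camk1d and Homer3, which have no count in skin, are fitted values and not ratios to the floor.

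The genes whose pattern over the 8 libraries was most like that of Tmem66 were found among 2236 genes with a count in every library, by the root mean square difference of centred log2(CPM + 1) values. They were Atp6v0c-ps2 (0.358), a pseudogene symbol, Dnaja1 (0.372), a chaperone partner, Ppp2cb (0.408), a phosphatase subunit, Rbm38 (0.438), an RNA-binding protein, and Map2k3 (0.442), a MAP kinase kinase. Dnaja1 was at 1979 ± 335 against 322 ± 80.5 CPM, and Map2k3 at 1842 ± 637 and 286 ± 71.0 CPM. Ppp2cb was far lower in counts, at 20.5 ± 7.42 and 1.86 ± 0.87 CPM, as was Rbm38 at 45.1 ± 19.1 and 5.30 ± 2.15 CPM. As a description, edgeR called Atp6v0c-ps2, Dnaja1 and Map2k3 higher in skin. It did not call Ppp2cb (edgeR adjusted p = 0.243) or Rbm38 (0.422). All 5 are ranked over the same 8 libraries, which split by tissue.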

How the data were processed

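RNA of iNKT cells from skin and spleen (4 libraries each) was made with the RNeasy plus micro kit and SMART-Seq v4, which does not mark the strand, and read as 75 bp paired ends, per the labels' protocols. What the authors deposited is a table of expected counts, estimated with RSEM per the submitters' processing notes. FastQC, DESeq2 1.16.1 and the build mm9 are named there too. The aligner, annotation and filters used are not given in sources used here. Columns were matched to libraries by the descriptions in the labels; 0 columns were left unused. The members and lists were chosen with earlier results of these data known.

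Rounded counts went into edgeR 4.0.16 (R 4.3.3, with limma 3.58.1). Its filterByExpr kept 6920 of 22549 genes; TMM scaled the libraries. The robust quasi-likelihood test had tissue as its single term and 6 residual degrees of freedom, with Benjamini-Hochberg adjustment at 0.05. CPM use the scaled sizes; SE is the size of the log2 fold change over the square root of F. The code was tested on simulated data. Against 0, a fold is given as the ratio to a floor of 3 counts per library. The floor covers counting error only, since reads carry no molecular identifiers, so such a ratio is not a limit. Named genes are the 9 members, 9 preset genes, list genes called (up to 4 each way per list), the 2 most abundant of a list without a call, up to 3 uncalled genes per list without overlap and at least 50 CPM, and the 5 genes most like Tmem66. Markers of 9 other cell types were summed. Alternatives were other scalings, filters and tools (DESeq2 1.42.0, limma-voom), a replicate block, and leaving out each library. Replicates of a tissue differed by more than sampling noise (smallest chi-square per degree of freedom 112). Promoters are from RefSeq (GRCm38.p6). Some listed genes are not reported here, and counts over the lists leave them out.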

Additional observations from a re-analysis of the deposited data

Results flagged for a closer look

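One value stood apart within its tissue. Atp6v0c-ps2, a pseudogene symbol among the genes most like Tmem66, was at 124 CPM in spleen replicate 3 and at 61.8 to 71.7 CPM in the other spleen libraries, a gap of 0.841 of the range. Of 36 groups of 4 libraries examined, 1 was found this way, and chance gives about 1 in 20.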

How the results depend on the processing

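The log2 fold change of Tmem66 was 3.08 to 3.32 over the 17 alternatives run, as a description. The count of the 9 genes called fell from 2 to 1 with library totals alone, with DESeq2 and with the replicate block, and was 1 to 2 without one library. Over all genes, 128 higher and 248 lower became 201 and 1179 with DESeq2, 207 and 500 with limma-voom, 36 and 14 with the replicate block, and 47 to 102 and 17 to 111 without one library; with no filter 48 were lower. Of the other route genes, 2 higher and 2 lower became 0 and 0 with the block, 2 (Tmbim6 and Grap2) and 8 with DESeq2, 2 and 4 with limma-voom, 1 and 0 with no filter, 2 and 1 with at least 5 CPM in 4 libraries, 1 and 2 with library totals alone, and 0 to 2 and 0 to 1 without one library. Limma-voom turned Stim1 (-1.25), Stim2 (-2.06), Orai2 (-2.22) and Nfatc2 (-1.39) below 0, and leaving out one library gave -0.93 to 1.08 for Stim2 and -0.74 to 0.59 for Orai2. The cause was not tested. The median log2 fold change of all genes moved by -1.77 with limma-voom, -0.70 with the replicate block, -0.41 with no filter, -0.32 with DESeq2 and -0.14 with library totals alone; no filter and DESeq2 took in more genes. Replicate numbers were not taken as pairs: same-numbered skin and spleen libraries correlated at 0.0017 to 0.0105, other pairs at -0.0270 to 0.0435, and 1 of 4 skin libraries correlated best with its own number. At these depths, genes near the level of Stim2 or Nfatc2 were often at 0 in a library; which differences could be detected there was not tested.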
